A study of Homo sapiens with 8 samples.

Results

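Footprint levels of 10 genes of the insulin-like growth factor (IGF) axis were examined among the 60651 genes of the deposited table. They comprise 3 receptors (IGF1R, INSR and IGF2R), 3 receptor substrates with 1 adaptor (IRS1, IRS2, IRS4 and GRB10), and 1 ligand with 2 binding proteins (IGF2, IGFBP2 and IGFBP5). Each member was found by its Ensembl identifier, with the version ignored, and its gene symbol. The set was chosen on the measured contrast of CR31B with DMSO, in which IGF1R and IGFBP5 were already known to be among the largest falls, and the other members were added by function. Levels and differences of the members are therefore given as descriptions, without p-values. The standard errors and intervals beside them describe spread between libraries, moderated in a fit over all tested genes (limma). They can be smaller or larger than the gene's own libraries alone would give.

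The cells were IMR32, an established human neuroblastoma line with amplified MYCN, labelled as neuroblasts of wild-type genotype. In 4 libraries the cells had received CR31B, an analogue of silvestrol, for 6 h, and in 4 control libraries they had received DMSO (0.1%). Cycloheximide was added before harvest in both groups, and ribosome-protected RNA fragments of 28 to 30 nt were sequenced. The libraries were sequenced on more than 1 run, and which library was on which run was not analysed here. The series describes the replicates as biological, and no untreated cells, RNA-seq of total RNA or second cell line is part of the comparison, so footprints per mRNA and mRNA amount cannot be told apart.

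IGF1 and IGF2 are secreted ligands that activate the tyrosine kinase IGF1R, and IGF2 also activates the insulin receptor, INSR. The activated receptors phosphorylate IRS proteins, which recruit PI3-kinase and so feed the AKT branch, while SHC and GRB2 feed the RAS to ERK branch. IGFBPs bind the ligands outside the cell, and IGF2R takes IGF2 up for degradation. Silvestrol and its analogues lock the helicase eIF4A onto purine-rich RNA, which blocks scanning of some mRNA leaders. IGF signalling is a known survival pathway of neuroblastoma cells.

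The labelled cell type was checked against marker genes. All 12 adrenergic neuroblast markers exceeded 1 TPM in at least 1 library, with a summed level from 1315 to 1896 TPM in CR31B and from 1243 to 1486 TPM in DMSO. Of these HAND2 alone was called, higher in CR31B (log2 difference 0.58), and its part in the results was not tested. Of 5 Schwann or glial markers, SOX10 was listed at 0 in all libraries and the sum reached at most 2.08 TPM. The 6 leukocyte markers summed to at most 0.24 TPM. Of the 10 mesenchymal or fibroblast markers, PRRX1 was listed at 0 throughout, and VIM, which neuroblasts also express, made up most of a sum from 115.2 to 173.4 TPM.

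IGFBP2 and IGFBP5 are neighbours on chromosome 2, which also holds IRS1, and the other members lie on a chromosome each (GRCh38, GENCODE release 29). IGFBP2 spans chr2:216632828-216664436 on the plus strand and IGFBP5 chr2:216672105-216695525 on the minus strand. IGF1R spans chr15:98648539-98964530, INSR chr19:7112255-7294034, IGF2R chr6:159969099-160113507 and GRB10 chr7:50590063-50793462. The annotated 5′ UTR of the principal coding transcript was 1043 nt for IGF1R and 750 nt for IGFBP5, against a median of 201 nt over 10309 tested genes with a coding transcript. Leaders at least as long as these occurred in 2.07% and 4.94% of the 10309 genes. Shorter annotated leaders belonged to IGF2R (148 nt), INSR (143 nt), IGFBP2 (129 nt) and GRB10 (31 nt). The RefSeq start site of INSR used below, chr19:7294414 on the minus strand, lies upstream of the gene span given here. From that site the INSR leader could be longer. Among the members too low to be tested, the annotated leaders were 1021 nt for IRS1, 1167 nt for IGF2, 515 nt for IRS2 and 65 nt for IRS4.

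The first 50 transcribed bases were read from the RefSeq start windows (GRCh38.p14), which held 9 of the 10 members and 35116 windows in all. They are shown because rocaglates act on purine-rich RNA. Each line below holds 30 bases, 5′ to 3′ on the transcribed strand, from the start site nearest to the annotated gene start, with the longest run of A and G in capitals.
IGF1R (chr15:98648556-98648585, plus): gcggcggcgcggcGAGGctggggctcttgt
IGFBP5 (chr2:216695506-216695535, minus): aacttctgcAGGGGAAAAGAGctaggaaag
INSR (chr19:7294366-7294395, minus): ccgcggcccgcacGGGGcccagctgacggg
IGF2R (chr6:159969086-159969115, plus): ctgtcgctgtcgccGAGcccagtcgagccg
GRB10 (chr7:50793424-50793453, minus): gggaggaggcAGAGAGGGAAGcgagctgcg
IGFBP2 (chr2:216632828-216632857, plus): caggtttGGAAAActgcaatagtcactaag

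IGFBP5 had a purine run of 12 bases, a length reached by 4.12% of all windows. The run of IGF1R was 4 bases, a length that 87.9% of windows reached, and the median over all windows was 5. GRB10, whose mean was higher in CR31B, had a run of 11 bases at this start site (6.11% of windows reached it) and runs of 4 to 8 at its 4 other start sites. IGFBP2 had a run of 6 bases at the start site shown. At its other start sites it had runs of 10 (9.07% of windows reached it) and 4. AGAGAG or GAGAGA on the transcribed strand was found in 4.08% of all windows and in 1 of the 16 member windows, that of GRB10. Counting both strands, 7.26% of all windows and 2 member windows held either one. The window covers only the first bases of the long IGF1R and IGFBP5 leaders.

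In DMSO the most abundant members were IGF1R, IGFBP5 and IGFBP2, at 28.8 ± 5.60, 22.7 ± 11.01 and 21.9 ± 3.42 TPM (SD, n = 4 each; TPM is footprint abundance per transcript length, with every library scaled to the same total), whose ranges overlapped. INSR at 5.14 ± 1.10 TPM and IGF2R at 4.40 ± 0.782 TPM followed, with ranges that overlapped each other and lay below those of the first 3. GRB10 was lower again at 2.03 ± 0.523 TPM. IGF2 (0.430 ± 0.242 TPM), IRS2 (0.538 ± 0.0591 TPM) and IRS1 (0.383 ± 0.166 TPM) stayed under 1 TPM with overlapping ranges, and IRS4 was listed at 0 in all 8 libraries. The tested genes had a median of 8.89 TPM in DMSO, so that IGF1R lay above 75.7% of them and INSR above 36.2%.

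TPM divides by the whole transcript although footprints come mostly from coding sequence, and the members differ in how much of the transcript is coding. The coding share was 13.1% for IGFBP5, 33.5% for IGF1R, 67.8% for IGFBP2 and 87.8% for INSR. When the DMSO means were expressed per coding length of the same transcript, IGFBP5 led at 173 ± 83.9, followed by IGF1R at 85.9 ± 16.7 and IGFBP2 at 32.4 ± 5.05 (TPM rescaled to coding length, SD, n = 4 each). On that scale IGF2R, at 8.27, stood above INSR, at 5.86. The ratio of the groups for 1 gene does not depend on this choice.

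A gene entered the test if its 8-library mean reached 1 TPM, which held for 6 of the 10 members and for 11778 genes in all. IGF1R, INSR, IGF2R, GRB10, IGFBP2 and IGFBP5 each had a mean of at least 1 TPM in both groups. IRS1, IRS2, IRS4 and IGF2 did not reach the minimum. The CR31B and DMSO groups did not overlap for 1910 of these 11778 genes, or 16.2%, and for 2 of the 6 tested members. In the limma fit over all tested genes, 7.46% were called at an adjusted p under 0.05, 3.45% higher and 4.02% lower in CR31B. Of the members, 2 were called, IGF1R and IGFBP5, both lower, and 0 were called higher. The IGF1R call held in all 18 alternatives to the main fit. The IGFBP5 call held in 13 of 18. It was lost with no filter and without CR31B replicate 4 or DMSO replicate 1, 2 or 4. Since this contrast chose the members, nothing is read from these counts.

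Among the receptors, IGF1R was far lower after CR31B. IGF1R (ENSG00000140443.15) was listed at 4.56, 3.68, 9.70 and 9.15 TPM in CR31B replicates 1 to 4. In DMSO replicates 1 to 4 it was listed at 34.46, 25.50, 32.49 and 22.68 TPM. Every CR31B library lay below every DMSO library, and the CR31B libraries formed a lower pair (replicates 1 and 2) and a higher pair (replicates 3 and 4). The ratio of means was 4.25-fold, and within replicate pairs DMSO exceeded CR31B by 7.56, 6.93, 3.35 and 2.48 times. On the log2(TPM + 1) scale the difference was -2.01 (SE 0.27, 95% interval -2.61 to -1.41). It was the 15th lowest of 11778. Leaving out each library in turn gave differences from -2.20 to -1.80.

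**Figure D1:**
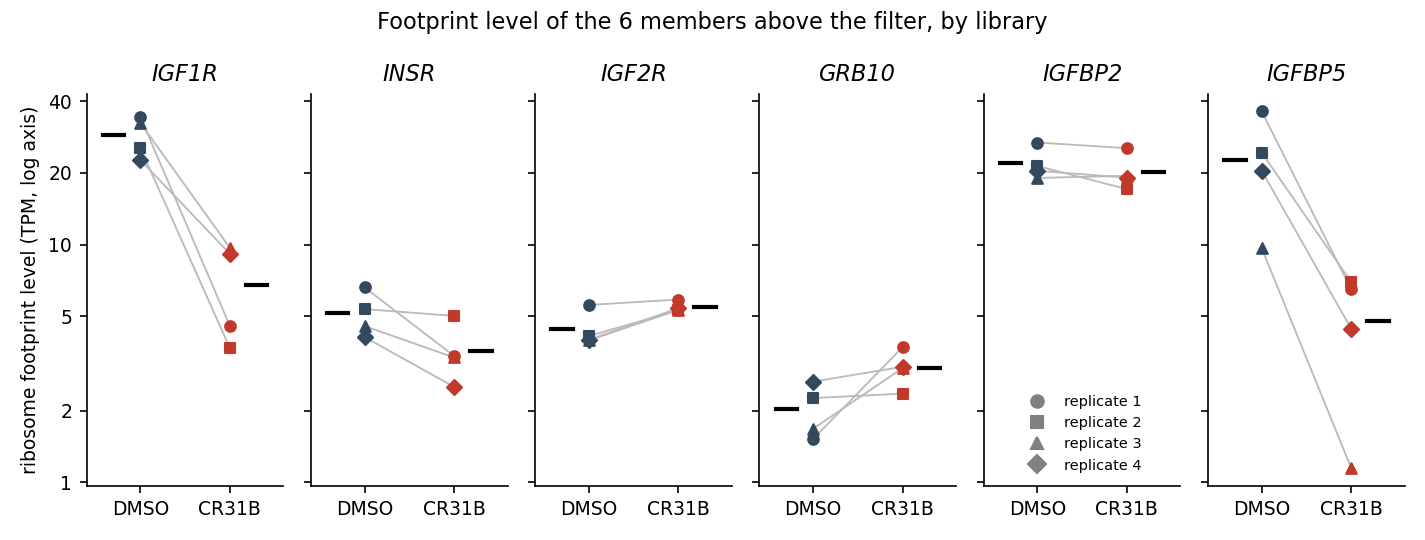
Footprint level in TPM (log axis) of the 6 tested members, by library; symbols mark replicate numbers, grey lines join libraries with the same number and black bars are group means (n = 4). IGF1R and IGFBP5 fall in every pair, from means of 28.8 and 22.7 TPM to 6.77 and 4.76 TPM, while IGFBP2 stays near 20.

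INSR (ENSG00000171105.14), the receptor that binds insulin and also pairs with IGF1R in hybrid receptors, was listed at 3.40, 5.01, 3.35 and 2.52 TPM in CR31B and at 6.60, 5.35, 4.54 and 4.08 TPM in DMSO. It was lower in CR31B in 4 of 4 pairs, by 1.07 to 1.94 times, but the groups overlapped because CR31B replicate 2 exceeded DMSO replicates 3 and 4. The log2 difference was -0.44 (SE 0.19, 95% interval -0.86 to -0.016).

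IGF2R (ENSG00000197081.16), which carries IGF2 and mannose 6-phosphate-tagged enzymes to lysosomes and has no kinase, was at 5.87, 5.29, 5.31 and 5.40 TPM in CR31B and at 5.57, 4.12, 3.95 and 3.97 TPM in DMSO. It was higher in CR31B in 4 of 4 pairs, and only DMSO replicate 1 reached the CR31B range. The log2 difference was 0.27 (SE 0.13, 95% interval -0.028 to 0.57). The 3 receptors thus had differences of unlike sign and size, and whether they differ from each other was not tested.

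The balance between the related kinases followed from these values. IGF1R made up 83.9%, 82.7%, 87.7% and 84.8% of the summed TPM of IGF1R and INSR in DMSO replicates 1 to 4. In CR31B replicates 1 to 4 it made up 57.3%, 42.3%, 74.3% and 78.4%. The CR31B shares were all lower than the DMSO shares and more spread (SD of 16.6 against 2.16 percentage points, n = 4 each), and in CR31B replicate 2 alone INSR exceeded IGF1R. Per coding length the shares were 93.6% ± 0.997 in DMSO and 80.6% ± 11.3 in CR31B (SD, n = 4 each), so IGF1R was then the larger in every library.

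Substrates and the adaptor were low throughout. IRS1 and IRS2 are docking proteins that link the receptors to PI3-kinase. IRS1 was at 0.53, 0.61, 0.59 and 0.66 TPM in CR31B and at 0.32, 0.63, 0.30 and 0.28 TPM in DMSO, and IRS2 ran from 0.42 to 0.84 TPM in CR31B and from 0.48 to 0.61 TPM in DMSO. Both groups overlapped for each gene. IRS1 lay at 0.598 ± 0.0538 TPM in CR31B against 0.383 ± 0.166 TPM in DMSO (SD, n = 4 each), with DMSO replicate 2 as the only control near the treated level. IRS1 took 48.5% ± 7.99 of the IRS sum in CR31B and 40.5% ± 10.6 in DMSO, higher in each pair, with overlapping ranges.

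IRS4, an X-linked substrate, was listed at 0 in every library, so no IRS4 difference can be given. GRB10 (ENSG00000106070.20), an adaptor that binds activated IGF1R and INSR and restrains their signal, was listed at 3.70, 2.36, 3.02 and 3.06 TPM in CR31B and at 1.52, 2.26, 1.68 and 2.65 TPM in DMSO. It was higher in CR31B in 4 of 4 pairs, yet CR31B replicate 2 lay below DMSO replicate 4. The log2 difference was 0.42 (SE 0.17, 95% interval 0.045 to 0.80). With a pseudocount of 5 its log2 difference was 0.19.

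**Figure D2:**
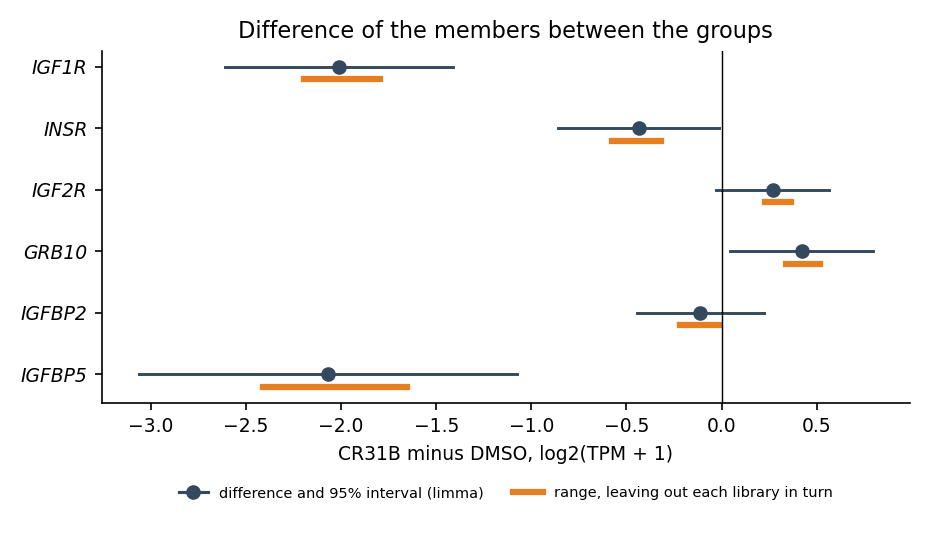
Difference of CR31B minus DMSO in log2(TPM + 1) for the 6 tested members (points) with 95% intervals from limma (dark lines) and the range when each library is left out in turn (orange bars). IGF1R and IGFBP5 lie near -2 and the other 4 between -0.44 and 0.42.

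In the main fit IGFBP5 was the member with the largest difference, close to that of IGF1R (-2.01). IGFBP5 had the larger fall in some alternatives and IGF1R in others, such as a pseudocount of 5 (-1.46 for IGFBP5, -1.54 for IGF1R). IGFBP5 (ENSG00000115461.5), a secreted protein that binds IGF1 and IGF2, was listed at 6.49, 6.96, 1.15 and 4.43 TPM in CR31B replicates 1 to 4. In DMSO replicates 1 to 4 it was listed at 36.33, 24.38, 9.66 and 20.45 TPM. The groups did not overlap, although DMSO replicate 3 lay close above the highest CR31B libraries. Replicate 3 was the lowest of each group. The ratio of means was 4.77-fold, and within pairs DMSO exceeded CR31B by 5.60, 3.50, 8.40 and 4.62 times. The log2 difference was -2.07 with an SE of 0.45 (95% interval -3.06 to -1.08). With the replicate number as a block the SE was 0.14, since libraries with the same number stood high or low together. Its difference ran from -2.41 to -1.65 when each library was left out.

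Its neighbour IGFBP2 (ENSG00000115457.10), another secreted IGF-binding protein, lay near the same level in both groups. IGFBP2 was listed at 25.42, 17.11, 19.45 and 19.11 TPM in CR31B and at 26.86, 21.39, 19.06 and 20.42 TPM in DMSO. The groups overlapped almost entirely, and replicate 1 was the highest of both. The log2 difference was -0.11 (SE 0.15, 95% interval -0.44 to 0.22). IGFBP5 accordingly took 48.6% ± 10.4 of the summed TPM of IGFBP2 and IGFBP5 in DMSO and 18.4% ± 9.64 in CR31B (SD, n = 4 each), with ranges of 33.6% to 57.5% and 5.58% to 28.9%. Per coding length those shares were 82.3% ± 6.79 and 50.6% ± 19.05.

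IGF2 (ENSG00000167244.21), the fetal growth factor, was listed at 0.84, 0.52, 0.44 and 0.17 TPM in CR31B and at 0.34, 0.32, 0.79 and 0.27 TPM in DMSO. It was higher in CR31B in 2 pairs and lower in 2. IGF2 shares exons with INS-IGF2 and with a further Ensembl entry of the same name, both listed at 0, and with the antisense gene IGF2-AS, which reached at most 0.05 TPM. Its value is uncertain to the extent that reads were divided among them. Of the tested members, IGFBP5 overlaps an antisense gene that was listed at 0 in all libraries, and IGF1R, INSR, IGF2R, GRB10 and IGFBP2 had no exon overlap with another annotated gene.

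**Figure D3:**
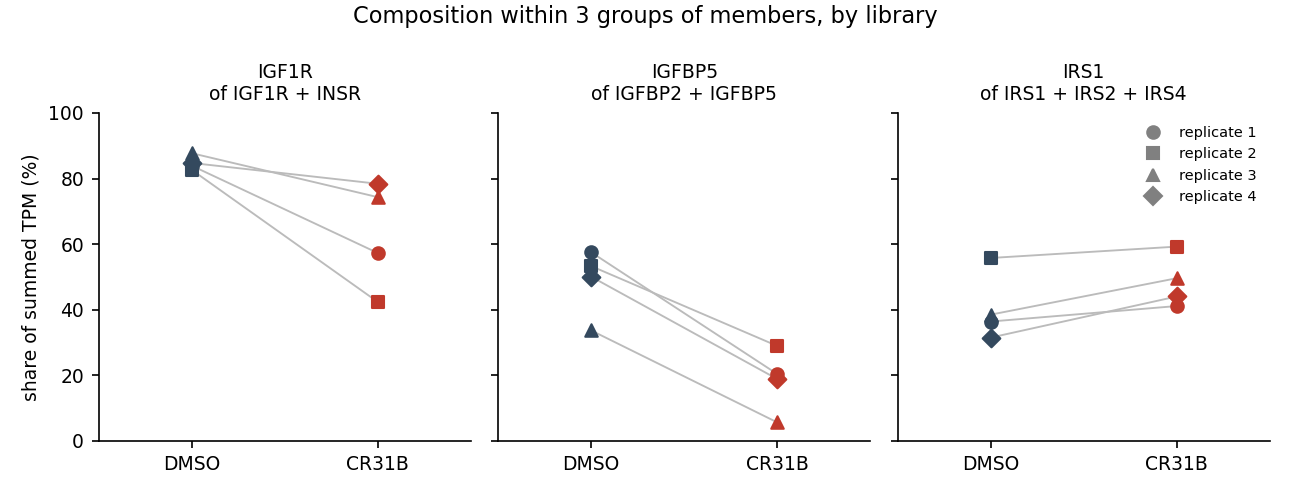
Share of summed TPM in percent, by library: IGF1R of IGF1R and INSR, IGFBP5 of IGFBP2 and IGFBP5, and IRS1 of the 3 IRS genes; symbols mark replicate numbers and grey lines join equal numbers. The shares of IGF1R and IGFBP5 are lower in all CR31B libraries than in all DMSO libraries, whereas those of IRS1 overlap.

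Numbers of reads behind these values could only be estimated, from the TPM of single reads in short genes with 1 transcript, of which 57.2% to 66.1% of low values per library lay within 0.1 read, or the rounding of the table where larger, of a whole number. IGF1R rested on an estimated 2482 to 5670 reads in CR31B and 21438 to 30372 in DMSO, if the annotated transcript of 12235 nt was the length used. IGFBP5 rested on 317 to 16229 reads, INSR on 600 to 2314, GRB10 on 425 to 1072 and IGF2 on 48 to 289. The lowest value of IGFBP5, in CR31B replicate 3, was the one on 317 reads.

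Within the groups the tested members did not vary as 1 block. After removal of group means, correlations between pairs of members over the 8 libraries ran from -0.63 (INSR with GRB10) to 0.83 (IGF2R with IGFBP2), with a median of 0.16 over 15 pairs. IGF1R and IGFBP5 had a correlation of -0.56, so the libraries with the lowest IGF1R were not those with the lowest IGFBP5. The points share library depth and composition.

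The genes whose levels were most like those of IGF1R over the 8 libraries, among 5613 genes whose mean reached 10 TPM, were DCBLD2, NEDD4L and WNK1, with Pearson correlations of 0.98, 0.98 and 0.97. DCBLD2, a membrane receptor, averaged 8.45 ± 1.15 TPM with CR31B against 15.8 ± 1.19 TPM with DMSO (SD, n = 4 each). NEDD4L, a ubiquitin ligase, averaged 11.3 ± 1.56 against 18.07 ± 1.55 TPM, and WNK1, a kinase, 17.4 ± 3.48 against 27.7 ± 0.971 TPM. Most of this likeness is the gap between the groups, which the choice of IGF1R fixed.

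The rest of the axis was taken from 6 lists of 118 genes written from general knowledge, of which 82 were tested. Of these 82, 4 were called higher and 4 lower in CR31B (limma, adjusted over all genes tested), or 9.76% against the 7.46% of all tested genes. The median log2 difference was -0.0035, against 0.029 for all tested genes. The lower genes include STC1, which passed the filter only through its DMSO level. The remaining 74 were not called. With the replicate number as a block 8 were lower and 6 higher, or 17.1% of the 82, against 12.3% of all tested genes in the same fit. Whether the lists differ from other genes was not tested. The lists were chosen with earlier results of these data known, so these counts and the adjusted p-values of their genes are descriptions.

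Outside the cell, most other IGF-axis genes were hardly seen. Of 16 further ligands, binding proteins and processing genes, 4 were tested, 6, including IGF1 and INS, were listed at 0 in all libraries, and 11 stayed under 1 TPM throughout. IGFBPL1, a relative of the IGFBPs, was the most abundant, averaging 29.4 ± 6.07 TPM with CR31B against 33.9 ± 10.2 TPM with DMSO (SD, n = 4 per group; log2 difference -0.18, limma adjusted p of 0.643). IGFBP4 was at 3.19 ± 1.05 and 2.64 ± 0.121 TPM (log2 difference 0.17, limma adjusted p of 0.605). STC1, a stanniocalcin that inhibits the IGFBP-cleaving protease PAPPA, averaged 0.508 ± 0.238 TPM with CR31B against 1.63 ± 0.140 TPM with DMSO (SD, n = 4 per group; log2 difference -0.82). It was the 1 gene of this list called, and since it passed the filter only through its DMSO level, nothing is read from that call. PAPPA was listed at 0 in all libraries.

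Among 29 receptor adaptors and regulators, 20 were tested, 1 rose and 1 fell, with a median log2 difference of -0.034. PTPN11, the phosphatase SHP2 that carries receptor signals to RAS, fell from a control mean of 16.3 ± 2.02 TPM to 10.5 ± 0.796 TPM (SD, n = 4 per group; log2 difference -0.59, SE 0.12, limma adjusted p of 0.0177). NEDD4, a ubiquitin ligase known to act with GRB10 on IGF1R, rose from 4.29 ± 1.19 to 8.01 ± 1.49 TPM (log2 difference 0.78, SE 0.19, limma adjusted p of 0.0331). The groups did not overlap for either gene, as for 16.2% of all tested genes. The PTPN11 call was lost without CR31B replicate 4 and without DMSO replicate 4. The NEDD4 call was lost with no filter and when any 1 of CR31B replicates 1, 2 and 3 or DMSO replicates 1, 2 and 4 was left out.

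Downstream, 18 of 22 genes of the PI3K to FOXO arm were tested and 0 were called, with a median log2 difference of -0.25 and 6 of 18 above 0. At an unadjusted limma p under 0.05, 2752 of the 11778 tested genes passed, and this arm was not set against that share. With the replicate block, GSK3B and PIK3CB were called lower. GSK3B, a kinase that AKT inhibits, averaged 52.5 ± 20.9 TPM with CR31B against 82.4 ± 6.83 TPM with DMSO (SD, n = 4 per group). Its log2 difference was -0.71, with a limma adjusted p of 0.0730 without the block and 0.0399 with it. The GSK3B groups overlapped, since CR31B replicate 3, at 83.3 TPM, lay within the DMSO range of 73.84 to 90.2 TPM.

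In the RAS to ERK arm 15 of 16 genes were tested and 2 were called, both higher, with a median log2 difference of 0.032. DUSP6, a phosphatase that inactivates ERK, was listed at 5.74, 3.79, 4.71 and 6.74 TPM with CR31B and at 2.21, 1.98, 1.49 and 2.15 TPM with DMSO. It rose from a control mean of 1.96 ± 0.327 TPM to 5.25 ± 1.28 TPM (SD, n = 4 per group; log2 difference 1.06, SE 0.17, limma adjusted p of 0.00643). Every CR31B library lay above every DMSO library, and the call held in all 17 alternatives in which DUSP6 was tested.

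**Figure D4:**
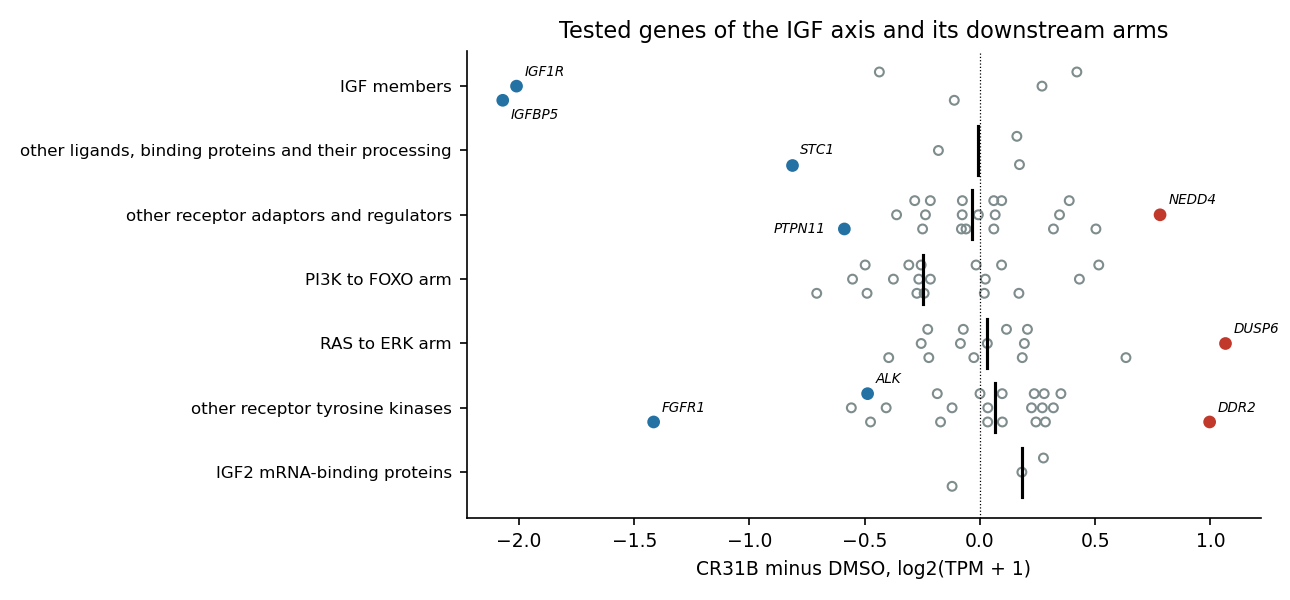
Difference of CR31B minus DMSO in log2(TPM + 1) for the tested members and the tested genes of 6 further lists, except 1 that is not drawn; filled points are genes with a limma adjusted p under 0.05 (blue lower, red higher), open points are the others and black bars are medians of the 6 further lists. IGF1R and IGFBP5 lie left of all other genes shown, and FGFR1 at -1.42 is the next lowest.

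Other receptor tyrosine kinases were set beside IGF1R. Of 32 such genes 22 were tested, 1 rose and 2 fell, and the median log2 difference was 0.065. FGFR1, a fibroblast growth factor receptor, was listed at 9.28, 7.43, 5.53 and 9.75 TPM with CR31B and at 20.54, 19.63, 23.55 and 27.26 TPM with DMSO, so the groups lay far apart. It fell from a control mean of 22.7 ± 3.44 TPM, a level near that of IGF1R, to 7.998 ± 1.93 TPM (SD, n = 4 per group; log2 difference -1.42, SE 0.18, limma adjusted p of 0.00193), and this call held in all 18 alternatives. ALK, the kinase mutated in some neuroblastomas, fell from 6.21 ± 0.443 to 4.15 ± 0.502 TPM (log2 difference -0.49, SE 0.13, limma adjusted p of 0.0416). DDR2, a collagen receptor, rose from 51.5 ± 11.8 to 106.8 ± 38.6 TPM (log2 difference 0.996, SE 0.24, limma adjusted p of 0.0332). The ALK call held in 6 of 17 alternatives and was lost when any 1 library was left out, with no filter, and with TPM rescaled over protein-coding genes. The DDR2 call held in 11 of 18 and was lost with no filter and without CR31B replicate 1, 3 or 4 or DMSO replicate 1, 2 or 4. Whether IGF1R fell more than FGFR1 was not tested.

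The 3 IGF2 mRNA-binding proteins were all tested and 0 were called. IGF2BP1 was the most abundant, averaging 259.9 ± 24.8 TPM with CR31B against 229 ± 27.4 TPM with DMSO (SD, n = 4 per group; log2 difference 0.18, limma adjusted p of 0.418), far above the level of IGF2 itself.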

How the data were processed

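Ribosome footprints were measured in 8 libraries, 4 per group. The authors deposited 1 table of TPM (abundance scaled for transcript length and to the same sum in each library). The submitters' processing notes name cutadapt 3.2, Bowtie2 2.3.4.1, STAR 2.7.1a and RSEM 1.2.28 and the build hg38 (GRCh38), and the annotation release and strand setting are not given in the sources used here. A rise in 1 abundant RNA lowers all other TPM values. Since every library has the same sum, a general change in the amount of footprints would not show. Higher, lower, rose and fell are thus relative to the other footprints of a library.

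Values were analysed as log2(TPM + 1), which understates changes of low genes. Genes whose mean reached 1 TPM entered a limma 3.58.1 fit (R 4.3.3) of treatment alone with a mean-variance trend, and Benjamini-Hochberg adjustment covered all 11778 of them. The fit was tested on simulated data. Symbols came from a table of gene names (60437 of 60651 identifiers matched), and gene models from GENCODE release 29. No count model was used, since TPM are not counts. Tables and figures were made with Python 3.11.15 and pandas 2.3.3.

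The members and lists were chosen with earlier results of these data known. Named are the members, in each list up to 3 called genes with the largest rise and up to 3 with the largest fall (1 called gene of the RAS to ERK list is counted but not reported here), the 3 genes most like IGF1R, and genes overlapping members. IGFBPL1, IGFBP4, GSK3B, PIK3CB, IGF2BP1, genes listed at 0, and marker genes were named after their values were seen. Alternatives were pseudocounts of 0.5 and 5, no filter, a mean of at least 10 TPM, 3 other scalings, no trend, leaving out each library, and the replicate number as a block. Equal replicate numbers were taken as pairs in that alternative because their deviations from the group means correlated across genes. The correlations were 0.333, 0.324, 0.301 and 0.105 for numbers 1 to 4, each above 0.1. Between libraries of different numbers they ran from -0.206 to 0.134, with a median of -0.123. Number 4 thus lay within the range of unmatched libraries, and its pairing is not borne out by these values.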

Additional observations from a re-analysis of the deposited data

Results flagged for a closer look

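In 4 of 40 groups of 4 libraries 1 library stood apart, with a gap to its nearest neighbour that took up most of the group's range, where chance gives about 1 in 20 (2 of 40). IGF2R was at 5.57 TPM in DMSO replicate 1, against 3.95 to 4.12 TPM in the other DMSO libraries. IRS1 was at 0.63 TPM in DMSO replicate 2, against 0.28 to 0.32 TPM. IGF2 was at 0.79 TPM in DMSO replicate 3, against 0.27 to 0.34 TPM. STC1 was at 1.42 TPM in DMSO replicate 1, against 1.69 to 1.71 TPM. What set these libraries apart was not tested.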

How the results depend on the processing

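Against the alternatives, main values moved by less than the spread between replicates, or counts by under 1.5 times, in 193 cases. They moved by more in 32. For the called genes of the other pathway lists the call was kept in 110 cases and lost in 27, and none of these reversed. Losses of member calls are not counted here, and the IGFBP5 call held in 13 of 18 alternatives. The count of called genes, 879 (406 higher, 473 lower), was 442 (181 higher, 261 lower) with no filter, which raised the number tested to 28564. Rescaling over protein-coding genes turned the balance to 546 higher and 518 lower, while quantile normalization gave 487 and 687 and median ratio scaling 480 and 674. Leaving out each library in turn gave 404 to 785 in all, 197 to 395 higher and 207 to 487 lower, and without both libraries numbered 3, an alternative chosen after seeing the data, 265 were higher. With the replicate number as a block, 1453 were called (680 higher, 773 lower), and in the other pathway lists 8 were lower in place of 4. In those lists the higher calls were 2 with a mean of at least 10 TPM and 2 to 5 when each library was left out, and the lower calls 1 to 4. GRB10 was 0.19 with a pseudocount of 5. Per coding length, added after seeing the data, the shares were 80.6% and 93.6% for IGF1R and 50.6% and 82.3% for IGFBP5 in CR31B and DMSO. Causes of the changed counts, apart from fewer libraries or more genes tested, were not tested. TPM keep no depth, which limits the low members most.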

Other observations

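H19, the imprinted non-coding gene beside IGF2, had levels of 4.08, 7.93, 21.78 and 9.72 TPM with CR31B (replicates 1 to 4). With DMSO its levels were 3.85, 8.89, 36.51 and 6.78 TPM in the same order. It was highest in replicate 3 of both groups, the replicate in which IGFBP5 was lowest in both groups. The other listed genes that overlap or read through members, INS-IGF2, IRAIN, AIRN and IRS4-AS1, were listed at 0 in all libraries.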
